A study of Mus musculus with 24 samples.

Results

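The Cyp2 genes encode the largest family of microsomal cytochromes P450 in the mouse. They were taken here as every protein-coding gene whose symbol is Cyp2 followed by a subfamily letter and a number, which gave 48 of the 35275 genes in the deposited read-count table. The 48 genes fall into 13 subfamilies, with 4 Cyp2a, 5 Cyp2b, 15 Cyp2c, 8 Cyp2d and 8 Cyp2j genes, and 1 gene each in Cyp2e, Cyp2f, Cyp2g, Cyp2r, Cyp2s, Cyp2t, Cyp2u and Cyp2w. RNA was sequenced from whole liver of male C57BL/6 mice aged 8 to 10 weeks that had been fasted for 24 h, in 6 genotype groups of 4 libraries. Control mice are labelled Wild type and are described in the study as littermates with floxed Tsc1 and floxed Cpt2. Mice labelled Tsc1 L-/- or Cpt2 L-/- lost that gene, and Tsc1Cpt2 L-/- mice (double knockout, DKO) lost both, through Cre under the albumin promoter, which is active in hepatocytes. The other groups are labelled PPAR-a KO (here Ppara KO) and Cpt2L-/- Ppara KO, and the labels do not say in which cells Ppara was lost or which littermates these mice had. Tsc1 is a brake on mTORC1, Cpt2 is required for mitochondrial oxidation of long-chain fatty acids, and Ppara is the nuclear receptor that drives the fasting programme of lipid catabolism. The comparisons ask how Cyp2 transcripts differ when mTORC1 is unrestrained, when fatty acid oxidation is blocked, when both are altered, and when Ppara is missing with or without Cpt2.

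Cytochromes P450 are haem enzymes of the endoplasmic reticulum that insert an oxygen atom into their substrate, with electrons supplied by the reductase Por. Cyp2 enzymes oxidise drugs and solvents, steroids, bile acids and polyunsaturated fatty acids, and many of them are made chiefly in hepatocytes. Many Cyp2b and Cyp2c genes are induced by the xenobiotic receptors CAR (Nr1i3) and PXR (Nr1i2), several differ between the sexes through the pattern of growth hormone release, and some are made mainly in the hepatocytes around the central vein (Cyp2e1, Cyp2c29, Cyp2a5) or around the portal vein (Cyp2f2).

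Libraries held between 14470968 and 20371204 counted reads. The labels do not say that the 4 libraries of a group came from separate animals, so the p-values below measure the spread between these libraries. A feature of the data that touches several comparisons is that the libraries fell into 2 sets of 12. Control, Tsc1 L-/- and DKO libraries (library set 1) held 211 to 1021 reads of Cd1d2 and 549 to 1798 reads of Rps3a3, against 1 to 13 and 3 to 48 in Cpt2 L-/-, Ppara KO and Cpt2 L-/- Ppara KO libraries (library set 2), genes that were picked after their values were seen. Comparisons of Tsc1 L-/- and DKO with control and with each other, and of Cpt2 L-/- Ppara KO with Cpt2 L-/- and with Ppara KO, lie within a set. Comparisons of Cpt2 L-/- and Ppara KO with control, of DKO with Cpt2 L-/-, and both interaction terms cross the sets, and there genotype and library set cannot be told apart.

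Liver identity and the deleted genes were checked first. The 8 hepatocyte markers examined, among them Alb and Ttr, exceeded 1 CPM (read counts scaled to the size of the library) in every group, with a summed level of 68601 to 92775 CPM in control and 31688 to 40934 CPM in DKO libraries, which do not overlap. Cpt2 L-/- libraries summed to 42697 to 64617 CPM, also wholly below control. Of the 8 markers, 4 were called lower in DKO and 2 in Cpt2 L-/-, each against control (17.1% and 14.9% of all genes). In DKO 5 were lower than in Tsc1 L-/- (15.2% of all genes). Alb averaged 43887 CPM in control and 12613 CPM in DKO. In bulk liver, fewer cells of a type and less RNA per cell cannot be told apart, and the part of these differences in the lower Cyp2 levels of these comparisons was not tested. Markers of other liver cells were also lower in DKO than in control, with 7 of 8 stellate (282 to 354 CPM in sum against 416 to 558.7 CPM), 5 of 7 Kupffer (150 to 266 CPM against 209 to 350 CPM) and 4 of 8 endothelial markers called (244 to 421.0 CPM against 421.7 to 488 CPM), beside 17.1% of all genes. The macrophage gene Cd68 was higher, averaging 92.7 CPM in DKO and 8.54 CPM in control. In DKO against Tsc1 L-/- 4 of 7 Kupffer markers were lower and 1 was higher (15.2% and 16.9% of all genes). Against Ppara KO, Cpt2 L-/- Ppara KO had 4 of 7 Kupffer markers higher and none lower. Of 8 endothelial markers 4 were lower and 1 was higher (12.9% of all genes higher and 12.6% lower). In Cpt2 L-/- Ppara KO against Cpt2 L-/- 3 of 7 Kupffer and 2 of 8 hepatocyte markers were higher and none lower (10.3% of all genes higher). DKO against Cpt2 L-/- had 3 of 8 hepatocyte and 3 of 7 Kupffer markers lower and 1 of each higher (7.4% and 10.9% of all genes). In Cpt2 L-/- against control 3 of 8 stellate markers were lower and none higher (14.9% of all genes lower). The part of these marker differences in the Cyp2 levels was not tested either. Mean Tsc1 level in control, Tsc1 L-/- and DKO was 38.5, 24.5 and 16.4 CPM, and mean Ppara level in control, Ppara KO and Cpt2 L-/- Ppara KO was 259, 27.4 and 50.8 CPM. Mean Cpt2 level in control, Cpt2 L-/- and DKO was 98.6, 91.7 and 96.2 CPM, and whole-gene counts do not show the loss of single exons. Kidney markers, relevant because several Cyp2j genes are made there, summed to 0.232 to 1.17 CPM in control but 4.38 to 14.1 CPM in Tsc1 L-/-, 1.02 to 3.32 CPM in DKO and 0.971 to 5.56 CPM in Ppara KO. Lrp2 was called higher than control in these 3 groups, while Aqp2 and Kap were at 0 in every library.

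Across the 6 groups, summed Cyp2 transcript was highest in control liver and lowest in DKO liver. The sum of all 48 genes in FPKM (reads scaled to gene length and library size, so that different genes can be compared) was 11001 ± 984 (SD, n = 4) in control, 7968 ± 1756 in Tsc1 L-/-, 6248 ± 680.1 in Cpt2 L-/-, 5281 ± 312 in DKO, 7921 ± 1241 in Ppara KO and 7252 ± 1812 in Cpt2 L-/- Ppara KO. Control libraries ranged from 10110.3 to 12319 FPKM, above every library of the other 5 groups, where the highest was 9328 FPKM in Tsc1 L-/-. Reads of Cyp2 genes made up 2.0% of all counted reads in control and 0.954% in DKO.

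A single gene, Cyp2e1, carried 61.9% of the control sum, and the Cyp2d genes carried 20.4%, Cyp2c 7.63%, Cyp2a 6.23%, Cyp2j 1.85% and Cyp2f2 1.81%. The make-up of the pool differed by genotype. In Ppara KO liver Cyp2e1 supplied 29.6% of the sum, Cyp2d 28.3%, Cyp2c 17.5%, Cyp2a 14.4% and Cyp2b 5.11%, where Cyp2b had supplied 0.0393% in control. Cyp2c summed to 839.7 FPKM in control, 1308 FPKM in Tsc1 L-/- and 1384 FPKM in Ppara KO, against 227 FPKM in Cpt2 L-/- and 221 FPKM in DKO. The Tsc1 L-/- libraries spanned 511 to 2351 FPKM and overlapped control. Cyp2c sums of Cpt2 L-/- libraries (189 to 263 FPKM) and DKO libraries (162 to 328 FPKM) lay below all control libraries (696 to 988 FPKM).

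**Figure D1:**
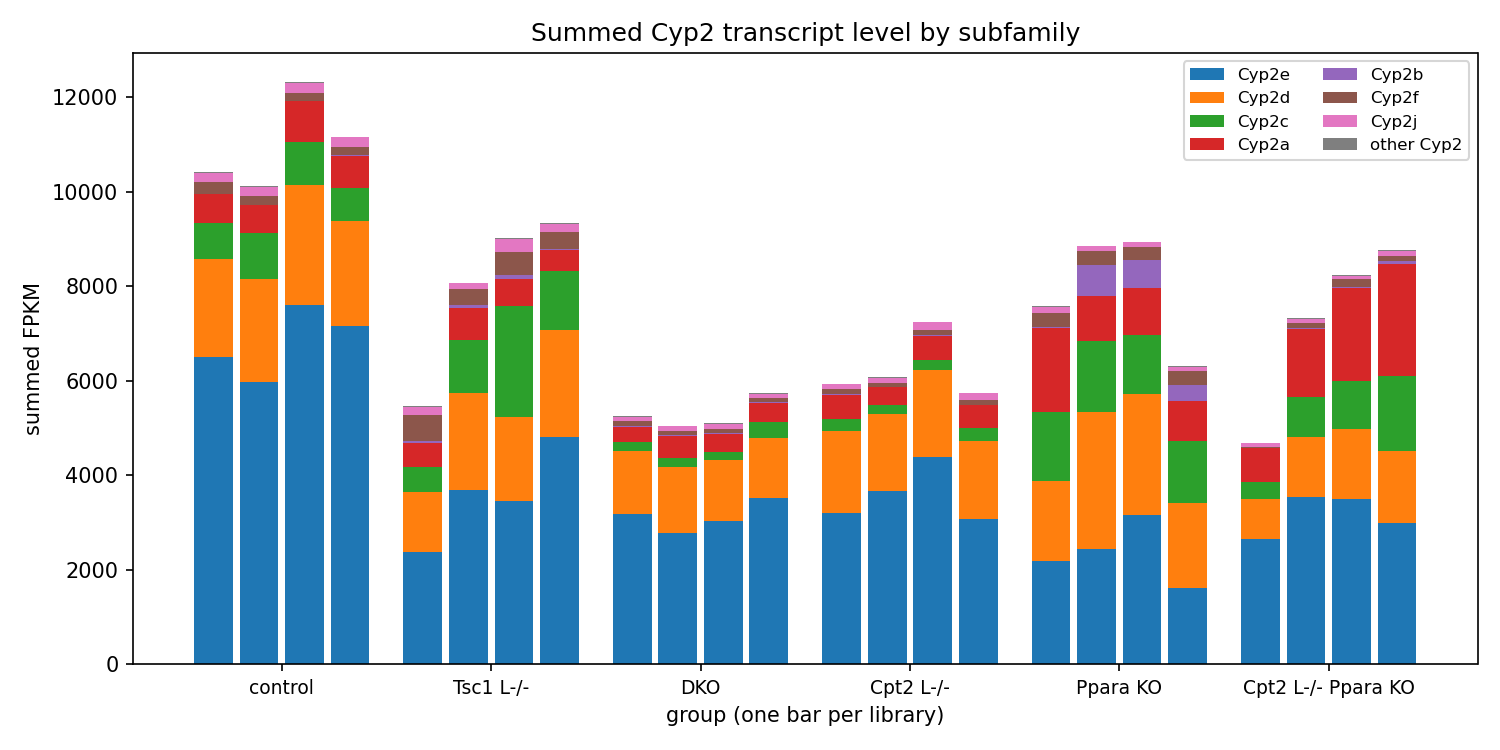
Summed level of the Cyp2 genes in each of the 24 libraries, in deposited FPKM, stacked by subfamily (vertical axis from 0) and ordered by genotype group (horizontal axis). Control libraries reach 10110.3 to 12319 FPKM, most of it Cyp2e1, and Cyp2b reaches 646.8 FPKM in the highest Ppara KO library, 36.9 FPKM in the lowest and at most 5.24 FPKM in control.

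Tests of single genes used edgeR on the counts of all genes, with p-values adjusted over all genes tested and called below 0.05. Low counts kept 15 of the 48 Cyp2 genes out of the fit of Tsc1 and Cpt2 loss (33 tested, with DKO and control) and 14 out of the fit of control, Cpt2 L-/-, Ppara KO and Cpt2 L-/- Ppara KO (34 tested). A gene that enters a fit only because 1 group expresses it is likely to differ, so the counts that follow describe the tested genes and are set beside the share of all genes called.

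Called Cyp2 genes were mostly lower in each comparison of DKO with a liver that still had Cpt2, and mostly higher where Ppara was lost on top of Cpt2. In Tsc1 L-/- against control 7 of 33 genes differed, 3 higher and 4 lower, beside 6.64% of all genes tested (4.16% higher and 2.48% lower). In DKO against control 20 of 33 differed, 1 higher and 19 lower, beside 36.4% of all genes, 19.3% higher and 17.1% lower. In DKO against Tsc1 L-/- all 19 genes called were lower, beside 32.2% of all genes called, 16.9% higher and 15.2% lower. In Cpt2 L-/- against control all 16 genes called were lower, beside 31% of all genes called, 16.2% higher and 14.9% lower. DKO against Cpt2 L-/- gave 5 calls, 3 higher and 2 lower, beside 18.3% of all genes, 10.9% higher and 7.4% lower.

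Calls went both ways where Ppara alone was lost. Ppara KO against control gave 11 calls of 34, 6 higher and 5 lower, beside 29% of all genes, 15.9% higher and 13.2% lower. Cpt2 L-/- Ppara KO against Cpt2 L-/- gave 15 calls, 14 higher and 1 lower, beside 18.4% of all genes called, 10.3% higher and 8.01% lower. Cpt2 L-/- Ppara KO against Ppara KO gave 14 calls, 3 higher and 11 lower, beside 25.5% of all genes called, 12.9% higher and 12.6% lower. Median log2 difference over the tested Cyp2 genes was -1.28 for DKO against control, -1.05 for DKO against Tsc1 L-/-, -1.01 for Cpt2 L-/- against control and 0.50 for Cpt2 L-/- Ppara KO against Cpt2 L-/-, where the median over all genes tested lay between -0.02 and 0.03.

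**Figure D2:**
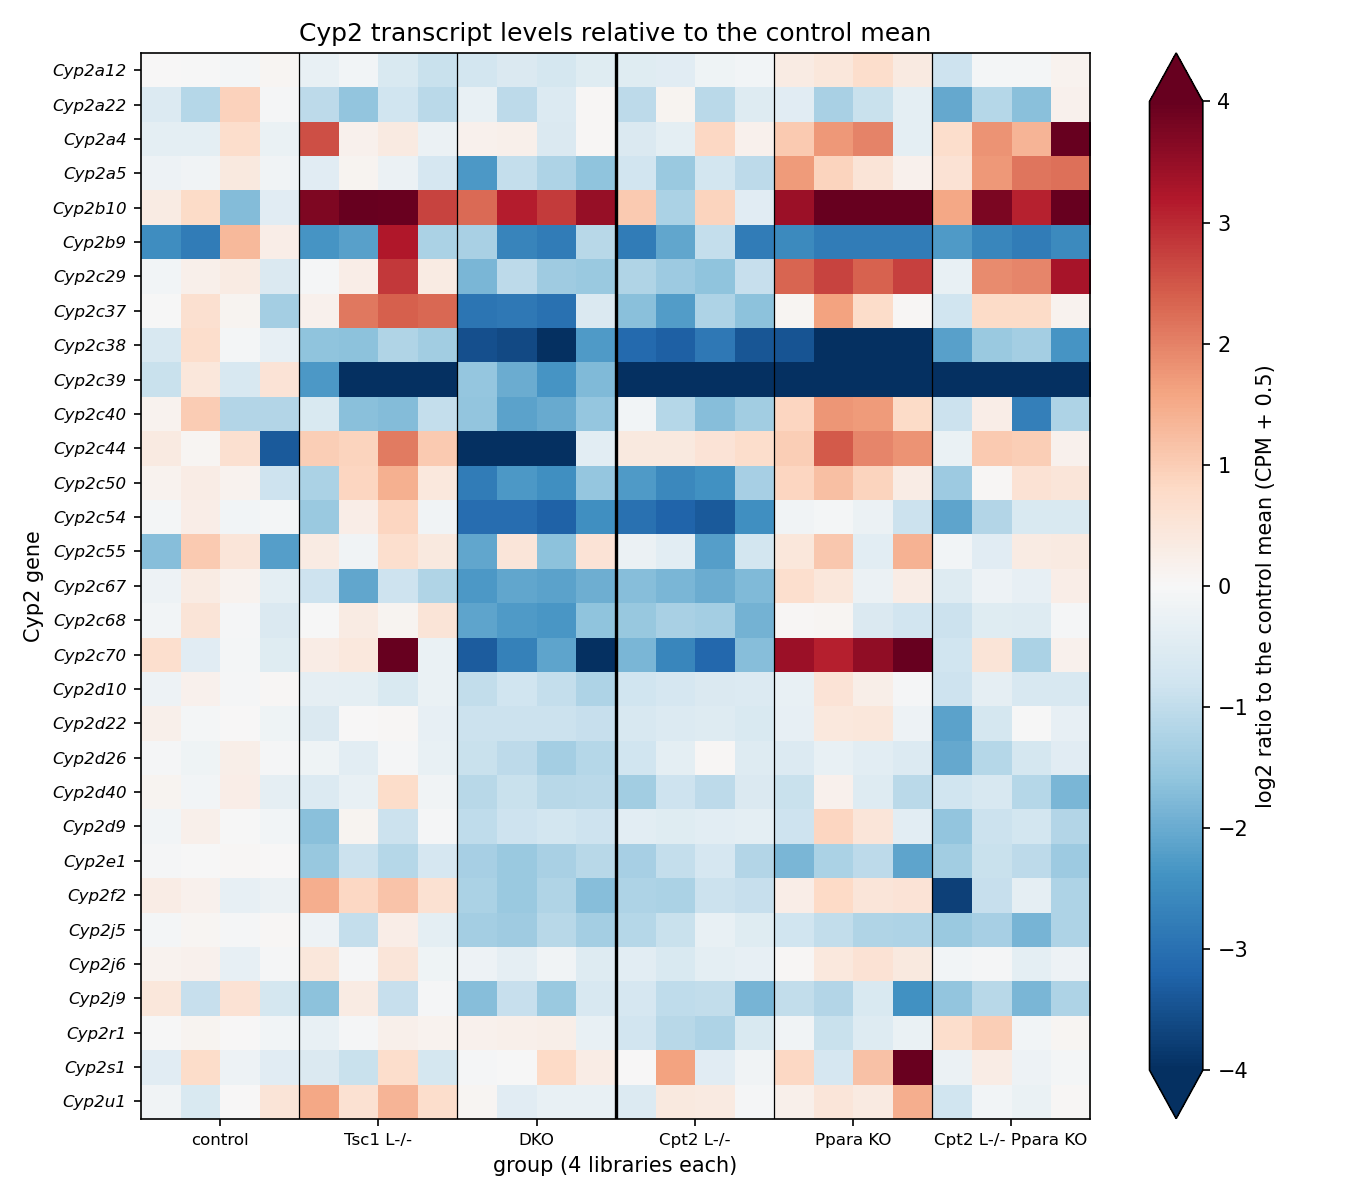
Colour shows the log2 ratio of each library to the control mean (CPM with 0.5 added, limited to 4 in either direction) for the 31 Cyp2 genes that averaged at least 1 CPM over the 24 libraries, by subfamily, with libraries in columns by genotype and a thick line between the library sets. Most Cyp2c genes are below control in DKO and Cpt2 L-/- columns, Cyp2b10 is above control in Tsc1 L-/-, DKO, Ppara KO and Cpt2 L-/- Ppara KO columns, and Cyp2c38 and Cyp2c39 are below control in the Cpt2 L-/- and Ppara KO columns.

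Cyp2e1, which oxidises ethanol, acetone and other small molecules in pericentral hepatocytes, was lower than control in Tsc1 L-/-, DKO, Cpt2 L-/- and Ppara KO livers by the test and had its lowest mean in Ppara KO. The gene lies at chr7:140763739-140774975, plus strand (GRCm38). Control libraries held 12636, 12840.5, 13319.8 and 13294 CPM. The Tsc1 L-/- livers had 4601, 7132, 5949 and 8156 CPM and the DKO livers 5177, 4698, 5355 and 5975 CPM, all below the lowest control library. The difference was 2.01-fold lower in Tsc1 L-/- (log2 -1.01 ± 0.18 SE, edgeR adjusted p = 0.0027) and 2.43-fold lower in DKO (log2 -1.28 ± 0.19 SE, edgeR adjusted p = 4.13e-05). Values in Cpt2 L-/- were 5212, 6770.0, 8123 and 5776 CPM, 2.02-fold lower than control (log2 -1.01 ± 0.18 SE, edgeR adjusted p = 0.000448). Ppara KO libraries held 3658, 5375, 6325 and 3014 CPM, 2.86-fold lower than control (log2 -1.51 ± 0.25 SE, edgeR adjusted p = 0.000298). Cpt2 L-/- Ppara KO libraries held 4959.7, 6977, 6319.5 and 4801 CPM and overlapped both Cpt2 L-/- and Ppara KO. Their difference from Cpt2 L-/- was not called (log2 -0.16 ± 0.24 SE, edgeR adjusted p = 0.673), nor was that from Ppara KO (log2 0.34 ± 0.24 SE, edgeR adjusted p = 0.315). The interaction is the log2 difference with Ppara loss in livers without Cpt2 less that in livers with Cpt2. It was 1.35 ± 0.34 SE, edgeR adjusted p = 0.0104.

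None of the 4 Cyp2a genes tested was called in Ppara KO against control (29% of all genes were called). Cyp2a4 and Cyp2a5 were called higher where Ppara was lost on top of Cpt2 (10.3% of all genes). Cyp2a5, the coumarin hydroxylase of mouse liver (chr7:26835305-26843548, plus strand), held 642, 676, 976 and 671 CPM in control and 151, 379, 316 and 242 CPM in DKO, which was 2.69-fold lower (log2 -1.43 ± 0.25 SE, edgeR adjusted p = 0.000344). In Tsc1 L-/- it was 547, 798, 637 and 463 CPM, and DKO was lower than these as well (log2 -1.15 ± 0.25 SE, edgeR adjusted p = 0.00206). Without Cpt2 it was 434, 267, 449 and 360.2 CPM, each of them below every control library (log2 -0.98 ± 0.25 SE, edgeR adjusted p = 0.0069). With Ppara also lost the level was 1099, 2445, 3257 and 3427 CPM, 6.79-fold higher than in Cpt2 L-/- with no overlap (log2 2.76 ± 0.37 SE, edgeR adjusted p = 0.000156). Ppara KO alone held 2390.3, 1367, 1049 and 828 CPM, a difference from control that was not called (log2 0.92 ± 0.35 SE, edgeR adjusted p = 0.0545). The interaction was called (log2 1.84 ± 0.49 SE, edgeR adjusted p = 0.0133), the log2 difference with Ppara loss being larger without Cpt2 than with it.

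Of the other Cyp2a genes, Cyp2a12, a steroid and bile acid hydroxylase, varied least. It averaged 570.3 ± 22.1 CPM (SD, n = 4) in control and 373 ± 30.8 CPM in DKO, a difference of -0.60 ± 0.15 SE, edgeR adjusted p = 0.00485. Its level in Cpt2 L-/- Ppara KO (322 to 629.6 CPM) was below that of Ppara KO (722 to 931 CPM; log2 -0.64 ± 0.20 SE, edgeR adjusted p = 0.0264), and the call did not hold without Cpt2 L-/- Ppara KO replicate 1 or Ppara KO replicate 3 (adjusted p up to 0.0777). Cyp2a22 averaged between 1.72 CPM in Tsc1 L-/- and 4.25 CPM in control and was called in no comparison. Cyp2a4, a female-biased steroid hydroxylase, reached 0.709, 2.09, 1.42 and 27.5 CPM in Cpt2 L-/- Ppara KO, where replicate 4 stood far above the other 3. Against Cpt2 L-/- (0, 0.0634, 0.823 and 0.334 CPM) the difference was log2 4.7, and it was 2.15 and no longer called without that library, nor was the call held without Cpt2 L-/- replicate 4 (adjusted p up to 0.126). Cyp2a4 and Cyp2a5 are close copies, and 22.1% and 25.5% of the 75-base windows of their transcripts also occur in another transcript, so reads could be split between them.

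Cyp2b10, the standard reporter of CAR activation, was called higher than control in Tsc1 L-/-, DKO and Ppara KO. Cpt2 L-/- Ppara KO was not tested against control, but its libraries also lay above every control library. The gene lies at chr7:25897620-25926624, plus strand. Its promoter in RefSeq (GRCm38.p6, plus strand, chr7:25897408-25897707, from 250 bases before to 50 bases after the start) is shown for that reason, and it holds none of the 8 short motifs searched in this window, so no letter is in capitals.
Cyp2b10: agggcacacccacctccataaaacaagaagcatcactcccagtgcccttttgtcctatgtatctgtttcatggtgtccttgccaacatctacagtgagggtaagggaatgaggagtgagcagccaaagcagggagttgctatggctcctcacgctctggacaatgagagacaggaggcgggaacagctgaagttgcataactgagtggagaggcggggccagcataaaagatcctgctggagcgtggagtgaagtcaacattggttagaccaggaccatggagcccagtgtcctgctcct

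In control liver Cyp2b10 was low, with 7.13, 9.85, 1.34 and 3.95 CPM. It reached 80.4, 113, 94.3 and 38.9 CPM in Tsc1 L-/- and 28.5, 52.9, 41.5 and 67 CPM in DKO libraries. Neither group overlapped control, and the level was 14.9-fold higher in Tsc1 L-/- (log2 3.9 ± 0.64 SE, edgeR adjusted p = 0.00307) and 8.76-fold higher in DKO (log2 3.13 ± 0.63 SE, edgeR adjusted p = 0.00187). Cyp2b10 was also higher with Tsc1 loss in the absence of Cpt2. Livers without Cpt2 had 12, 2.03, 10.8 and 3.9 CPM, and DKO was 6.64-fold higher than these (log2 2.73 ± 0.61 SE, edgeR adjusted p = 0.00891). The comparisons of Tsc1 L-/- with control and of DKO with Cpt2 L-/- share no library, and Cyp2b10 was the 1 of 33 Cyp2 genes higher in both, beside 2.07% of all genes. Cpt2 L-/- libraries overlapped control (log2 0.40, not called).

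The highest Cyp2b10 values were in Ppara KO liver, 64.8, 1492, 1250.3 and 670.2 CPM, 155-fold higher than control (log2 7.28 ± 1.0 SE, edgeR adjusted p = 0.000102). The 4 libraries spanned a wide range, but the lowest was above every control library. With both Cpt2 and Ppara lost the values were 17.2, 82.8, 50.4 and 111 CPM, 9.07-fold higher than Cpt2 L-/- (log2 3.18 ± 0.84 SE, edgeR adjusted p = 0.0173). That call was lost without Cpt2 L-/- replicate 4 (adjusted p = 0.0602) and under a replicate block, without the filter on low counts or by limma on unfiltered FPKM (adjusted p up to 0.0621). Against Ppara KO the same libraries were lower (log2 -3.72 ± 0.84 SE, edgeR adjusted p = 0.00847), although the groups overlap. The interaction was -4.1 ± 1.14 SE, edgeR adjusted p = 0.0176, the rise with Ppara loss being smaller where Cpt2 was lost.

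The other Cyp2b genes were low throughout. Cyp2b9, a female-biased gene, was at or below 8.07 CPM in all libraries except Tsc1 L-/- replicate 3, which had 31.4 CPM, and it was called nowhere. Female-biased Cyp2b13 averaged 0.0855 (control) and 0.191 CPM (Tsc1 L-/-) and had no read in the other groups. Cyp2b19, a skin enzyme, was read once in a single Tsc1 L-/- library, and Cyp2b23 had no read.

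The Cyp2c genes, which include the epoxygenases and hydroxylases of arachidonic and linoleic acid, form a cluster of 14 genes at chr19:39007019-40187333, with Cyp2c44 apart at chr19:44005022-44029247, minus strand. Of the 12 tested in the first fit, 8 were lower in DKO than in control, 9 lower than in Tsc1 L-/-, and 6 were lower in Cpt2 L-/- than in control, with none higher, where 17.1%, 15.2% and 14.9% of all genes were lower. Of the 13 tested in the second fit, 9 were higher in Cpt2 L-/- Ppara KO than in Cpt2 L-/- and none lower, beside 10.3% of all genes higher. The promoters of Cyp2c29, Cyp2c38 and Cyp2c39 are shown because these neighbouring genes have similar promoters and differed in response. They cover 250 bases before to 50 bases after the RefSeq start (GRCm38.p6) and lie at chr19:39286835-39287134 on the plus strand, chr19:39463026-39463325 on the minus strand and chr19:39510572-39510871 on the plus strand. Capitals mark TATAAA, and in Cyp2c29 also AGGTCA, the half-site of many nuclear receptors. The RefSeq start of Cyp2c29 lies 17680 bases from the gene start in the deposited table.
Cyp2c29: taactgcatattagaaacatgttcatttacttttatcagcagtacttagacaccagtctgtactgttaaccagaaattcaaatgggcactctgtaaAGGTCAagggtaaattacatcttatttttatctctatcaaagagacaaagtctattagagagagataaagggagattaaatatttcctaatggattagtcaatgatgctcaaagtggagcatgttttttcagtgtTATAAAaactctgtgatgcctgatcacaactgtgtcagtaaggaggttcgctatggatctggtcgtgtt
Cyp2c38: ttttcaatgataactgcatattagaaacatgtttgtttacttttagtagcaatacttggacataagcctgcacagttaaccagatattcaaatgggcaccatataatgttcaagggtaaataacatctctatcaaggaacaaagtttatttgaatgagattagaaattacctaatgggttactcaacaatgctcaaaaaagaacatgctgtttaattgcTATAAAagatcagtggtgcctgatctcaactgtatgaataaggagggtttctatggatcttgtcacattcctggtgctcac
Cyp2c39: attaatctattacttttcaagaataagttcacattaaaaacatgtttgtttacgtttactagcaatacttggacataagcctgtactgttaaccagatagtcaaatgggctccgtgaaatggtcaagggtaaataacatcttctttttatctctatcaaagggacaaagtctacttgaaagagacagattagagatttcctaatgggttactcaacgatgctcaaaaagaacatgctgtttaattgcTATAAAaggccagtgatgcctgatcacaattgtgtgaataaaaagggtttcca

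Cyp2c38 and Cyp2c39 are identical at 79.7% of aligned promoter bases, and Cyp2c29 is identical to them at 76% and 74.3%, where the median over 78 pairs of Cyp2c promoters was 57.6%. TATAAA begins 19 bases before the start in Cyp2c29, 31 before it in Cyp2c38 and 3 before it in Cyp2c39. TATAAA (either strand) occurred in 21 of 40 Cyp2 promoters, or 52.5%, against 14.2% of 27025 promoters of the same length, and 30% of Cyp2 promoters against 2.75% of all had it beginning 40 to 20 bases before the start. CAAAGTCCA, a form of the HNF4 site, occurred in 6 of the 40 (Cyp2c40, Cyp2c65, Cyp2c67, Cyp2c68, Cyp2c69 and Cyp2c70), or 15%, against 0.477% of all. Several of these promoters are near copies of each other (Cyp2c68 and Cyp2c69 are identical at 92.3% of bases), and a match describes sequence only. AGGTCA occurred in 30% of Cyp2 promoters against 16% of all, and TTCNNNGAA, the STAT5 pattern, in 5% against 8.47%.

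Cyp2c39, an arachidonic and retinoic acid hydroxylase, was further below control than any other Cyp2 gene tested in Cpt2 L-/- and in Ppara KO. Both comparisons cross the library sets. Control libraries held 168, 421, 196 and 447 CPM. Only 3.73, 2.03, 2.76 and 1.45 CPM were left in Cpt2 L-/- and 1.98, 0.789, 1.73 and 1.58 CPM in Ppara KO. Both groups lay far below control, 122-fold lower in Cpt2 L-/- (log2 -6.94 ± 1.13 SE, edgeR adjusted p = 0.000545) and 198-fold lower in Ppara KO (log2 -7.63 ± 0.45 SE, edgeR adjusted p = 1.17e-08). Tsc1 L-/- libraries held 62.5, 3.89, 1.72 and 3.56 CPM, with replicate 1 far above the other 3. That difference from control was called (log2 -4.09 ± 0.96 SE, edgeR adjusted p = 0.024) but not without control replicate 2 or 4 or Tsc1 L-/- replicate 2 or 4 (adjusted p up to 0.0551), nor in fits of fewer libraries (adjusted p up to 0.147), and it was -6.64 without Tsc1 L-/- replicate 1.

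DKO libraries had a higher mean of Cyp2c39 than either single knockout, with 104, 76.6, 59 and 90.1 CPM, and did not overlap Cpt2 L-/- (33.3-fold higher; log2 5.06 ± 1.05 SE, edgeR adjusted p = 0.00658). Their differences from control (log2 -1.88 ± 0.87 SE, edgeR adjusted p = 0.108) and from Tsc1 L-/- (log2 2.21 ± 0.89 SE, edgeR adjusted p = 0.0772) were not called. The interaction of Tsc1 and Cpt2 loss was 9.15 ± 1.42 SE, edgeR adjusted p = 0.00712, and it was 11.7 without Tsc1 L-/- replicate 1. Cpt2 L-/- Ppara KO libraries held 4.54, 6.75, 7.39 and 3.87 CPM, all above Ppara KO (3.62-fold higher; log2 1.85 ± 0.39 SE, edgeR adjusted p = 0.0058) and far below control. That call was lost in 1 fit of all 24 libraries (adjusted p = 0.107). Against Cpt2 L-/- the same libraries were higher (log2 1.17 ± 0.37 SE, edgeR adjusted p = 0.0352), but the call was lost in 12 of 18 alternatives, among them the replicate block, no filter on low counts, every limma fit and the omission of any one of Cpt2 L-/- replicates 2 to 4 or Cpt2 L-/- Ppara KO replicates 1 to 3 (adjusted p up to 0.316). The interaction of Cpt2 and Ppara loss was 8.8 ± 0.56 SE, edgeR adjusted p = 9.58e-08, the gene being at a few CPM in Cpt2 L-/- and in Ppara KO. All libraries of library set 2 held 0.789 to 7.39 CPM of Cyp2c39. Genotype and library set therefore cannot be told apart in either interaction or in the comparison of DKO with Cpt2 L-/-.

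Cyp2c38, the neighbour of Cyp2c39, also fell with each single loss. Control libraries held 55.7, 139.9, 82.7 and 68.2 CPM, Tsc1 L-/- 28.3, 27.2, 37 and 32.5 CPM and DKO 7.18, 6.69, 4.29 and 17.6 CPM. The 3 groups do not overlap, and DKO was lower than Tsc1 L-/- (log2 -1.79 ± 0.37 SE, edgeR adjusted p = 0.00197) and than control (9.52-fold lower; log2 -3.25 ± 0.38 SE, edgeR adjusted p = 1.91e-05). The smaller difference of Tsc1 L-/- from control (log2 -1.46 ± 0.35 SE, edgeR adjusted p = 0.0239) was lost without control replicate 2 or 3 or Tsc1 L-/- replicate 1, 2 or 4 (adjusted p up to 0.066), under a replicate block, without the filter on low counts and in the fit of the 12 libraries of its set (adjusted p = 0.0505, 0.0557 and 0.0562). Its level in Cpt2 L-/- was 9.64, 8.63, 11.4 and 7.69 CPM (log2 -3.21 ± 0.38 SE, edgeR adjusted p = 2.90e-05 against control) and that in Ppara KO was 7.44, 3.87, 3.95 and 2.33 CPM (log2 -4.28 ± 0.37 SE, edgeR adjusted p = 1.29e-06 against control). The combined loss gave 18.9, 30.6, 33.5 and 16.6 CPM, above all libraries of both single losses (log2 1.42 ± 0.33 SE, edgeR adjusted p = 0.0088 against Cpt2 L-/-, log2 2.48 ± 0.35 SE, edgeR adjusted p = 0.000884 against Ppara KO). The interaction was 5.7 ± 0.49 SE, edgeR adjusted p = 3.73e-06.

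Cyp2c29, an epoxygenase that CAR induces, was higher in Ppara KO than in control, where Cyp2c38 and Cyp2c39 were lower. Control libraries held 189, 235, 255 and 136 CPM and Ppara KO libraries 1022, 1339, 1047 and 1358 CPM, 5.82-fold higher with no overlap (log2 2.54 ± 0.48 SE, edgeR adjusted p = 0.000867). Cpt2 L-/- libraries held 88, 74.8, 66.3 and 108 CPM and Cpt2 L-/- Ppara KO libraries 165, 749.6, 786 and 2025 CPM, 11.1-fold higher (log2 3.47 ± 0.49 SE, edgeR adjusted p = 0.000294) and 2.72 on the log2 scale without Cpt2 L-/- Ppara KO replicate 4. The lower value of Cpt2 L-/- against control was not called (log2 -1.27 ± 0.55 SE, edgeR adjusted p = 0.0965). Tsc1 L-/- libraries held 197, 243, 1465 and 258 CPM, where replicate 3 stands apart, and DKO libraries 56.4, 98.2, 75.3 and 72.8 CPM. DKO was lower than Tsc1 L-/- (log2 -2.82 ± 0.58 SE, edgeR adjusted p = 0.00231), a difference of -1.61 that was still called without Tsc1 L-/- replicate 3.

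Cyp2c50 and Cyp2c54, which like Cyp2c37 oxidise arachidonic and linoleic acid, were lower than control in Cpt2 L-/- and in DKO, while Cyp2c37 was not called in Cpt2 L-/- (log2 -1.67 ± 0.64 SE, edgeR adjusted p = 0.0651). Cyp2c54 held 209.7, 264.3, 203 and 208 CPM in control, 26.4, 26.4, 23.2 and 40.3 CPM in DKO and 27.6, 23.7, 21.1 and 39.7 CPM in Cpt2 L-/-. Both knockouts lay wholly below control (7.51-fold lower in DKO, log2 -2.91 ± 0.39 SE, edgeR adjusted p = 5.42e-05; 7.9-fold lower in Cpt2 L-/-, log2 -2.98 ± 0.39 SE, edgeR adjusted p = 6.06e-05). With Ppara also lost Cyp2c54 stood at 51.1, 97.4, 144 and 145 CPM (log2 1.97 ± 0.29 SE, edgeR adjusted p = 0.000347 against Cpt2 L-/-), while Ppara KO alone, at 203, 209.6, 189 and 121 CPM, was not called against control (log2 -0.30). The interaction was 2.27 ± 0.40 SE, edgeR adjusted p = 0.00125. Tsc1 L-/- libraries, at 78.7, 268, 401 and 201 CPM, spanned control, and DKO was lower than these (log2 -3.01 ± 0.39 SE, edgeR adjusted p = 5.30e-05).

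Cyp2c50 held 379, 426, 376 and 192 CPM in control, 49.3, 70.2, 61.8 and 118 CPM in DKO and 71, 56.6, 63.6 and 137 CPM in Cpt2 L-/-. It was lower than control in DKO (log2 -2.18 ± 0.50 SE, edgeR adjusted p = 0.00389) and in Cpt2 L-/- (log2 -2.07 ± 0.49 SE, edgeR adjusted p = 0.0061), with no overlap in either case. Against Tsc1 L-/- (143, 626, 927 and 456 CPM) DKO was 7.14-fold lower (log2 -2.84 ± 0.51 SE, edgeR adjusted p = 0.000848), and Cpt2 L-/- Ppara KO (124, 359, 510.3 and 478 CPM) overlapped Cpt2 L-/- in its lowest library although the difference was called (log2 2.17 ± 0.39 SE, edgeR adjusted p = 0.00159). Cyp2c37 ranged widely within groups, with 175, 279, 191 and 68.6 CPM in control livers, 201, 767, 929 and 872 CPM in Tsc1 L-/- and 22.9, 24.2, 22.1 and 120.0 CPM in DKO. DKO was 14.5-fold lower than Tsc1 L-/- (log2 -3.86 ± 0.70 SE, edgeR adjusted p = 0.00102), and the log2 difference was -4.89 without DKO replicate 4. Its difference from control overlapped and was lost without any one of control replicates 1 to 3 or DKO replicates 1 to 3 (log2 -1.9, adjusted p up to 0.0918), and was -2.93 without DKO replicate 4. In Cpt2 L-/- Ppara KO (102, 305, 307 and 196 CPM) it was higher than in Cpt2 L-/- (55.2, 37.4, 74.9 and 57.1 CPM; log2 2.02 ± 0.43 SE, edgeR adjusted p = 0.00531).

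Cyp2c70, which makes muricholic acids from chenodeoxycholic acid in the mouse, was highest in Ppara KO. Control libraries held 31.4, 13.9, 18.4 and 13.7 CPM and Ppara KO libraries 214, 170.2, 233 and 365 CPM, 12.6-fold higher with no overlap (log2 3.66 ± 0.44 SE, edgeR adjusted p = 2.46e-05). Without Cpt2 as well the level was 10.9, 28, 7.8 and 21.7 CPM, 14.3-fold lower than Ppara KO (log2 -3.84 ± 0.44 SE, edgeR adjusted p = 0.000322) and above Cpt2 L-/-, which held 5.11, 2.73, 1.76 and 5.63 CPM (log2 2.16 ± 0.43 SE, edgeR adjusted p = 0.00361). DKO libraries held 1.47, 2.52, 4.1 and 0.534 CPM, all below control (log2 -3.17 ± 1.02 SE, edgeR adjusted p = 0.0279). That call was lost without control replicate 1 or DKO replicate 1, 2 or 4 (adjusted p up to 0.0734). In Tsc1 L-/- it held 23.7, 26.3, 312 and 15.9 CPM, so the difference of DKO from them (log2 -5.46 ± 1.07 SE, edgeR adjusted p = 0.00191) rests partly on replicate 3 and was -3.35, still called, without it.

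Cyp2c44, an epoxygenase encoded outside the cluster, held 76.3, 62, 93.3 and 5.35 CPM in control livers, 118, 109.6, 251 and 123 CPM in Tsc1 L-/- and 2.77, 2.16, 1.17 and 44.6 CPM in DKO. DKO lay wholly below Tsc1 L-/- (log2 -3.55 ± 1.06 SE, edgeR adjusted p = 0.022), a call lost without DKO replicate 1 or 2 or Tsc1 L-/- replicate 3 (adjusted p up to 0.0548) and the difference was -6.17 without DKO replicate 4. Ppara KO libraries held 117, 325, 233 and 209 CPM, all above control (log2 1.88 ± 0.55 SE, edgeR adjusted p = 0.0168), a call lost in a fit of these 2 groups, without the filter on low counts and in 1 fit of all 24 libraries (adjusted p up to 0.09). Without Cpt2 it averaged 84.9 CPM against 59.2 CPM in control, a difference that was not called (log2 0.51 ± 0.96 SE, edgeR adjusted p = 0.727).

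Cyp2c67 and Cyp2c68 were lower without Cpt2 and higher again without Ppara. Cyp2c67 held 142, 209, 184 and 126 CPM in control livers, 93.2, 38.9, 92.9 and 72.1 CPM in Tsc1 L-/- and 33.4, 39.1, 36.8 and 42.3 CPM in DKO. It was lower than control in both knockouts (log2 -1.15 ± 0.21 SE, edgeR adjusted p = 0.00357 and -2.11 ± 0.22 SE, edgeR adjusted p = 2.49e-06), without overlap. In Cpt2 L-/- it held 50.9, 45.9, 41.5 and 48.8 CPM (log2 -1.82 ± 0.22 SE, edgeR adjusted p = 1.39e-05 against control) and in Cpt2 L-/- Ppara KO 116, 143, 133 and 200.1 CPM, 3.17-fold higher than Cpt2 L-/- (log2 1.67 ± 0.23 SE, edgeR adjusted p = 0.000178). Cyp2c68 averaged 113 ± 36.3 CPM in control (SD, n = 4), 26.9 ± 6.67 CPM in DKO and 39.8 ± 6.87 CPM in Cpt2 L-/-, and both differences from control were called (log2 -2.05 and -1.51). Interactions of Cpt2 and Ppara loss were 1.34 and 1.32. The 2 transcripts share 36% and 28.5% of their 75-base windows with other transcripts.

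The remaining Cyp2c genes were low. Female-biased Cyp2c40 averaged 2.86 CPM in control, 0.461 CPM in DKO (log2 -2.57 ± 0.66 SE, edgeR adjusted p = 0.00595) and 8.07 CPM in Ppara KO, against 1.46 CPM in Cpt2 L-/- Ppara KO (log2 -2.48 ± 0.78 SE, edgeR adjusted p = 0.0298). The last call was lost without Cpt2 L-/- Ppara KO replicate 1 or 4 or Ppara KO replicate 2 or 3 (adjusted p up to 0.0873), and 57.1% of the 75-base windows of Cyp2c40 occur in other transcripts. Cyp2c55, which CAR induces, averaged 1.07 to 3.93 CPM over the groups and Cyp2c69, another female-biased gene, 0 to 1.14 CPM, with no call. The intestinal genes Cyp2c65 and Cyp2c66 were too low to test, Cyp2c65 averaging at most 0.19 CPM and Cyp2c66 having no read.

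**Figure D3:**
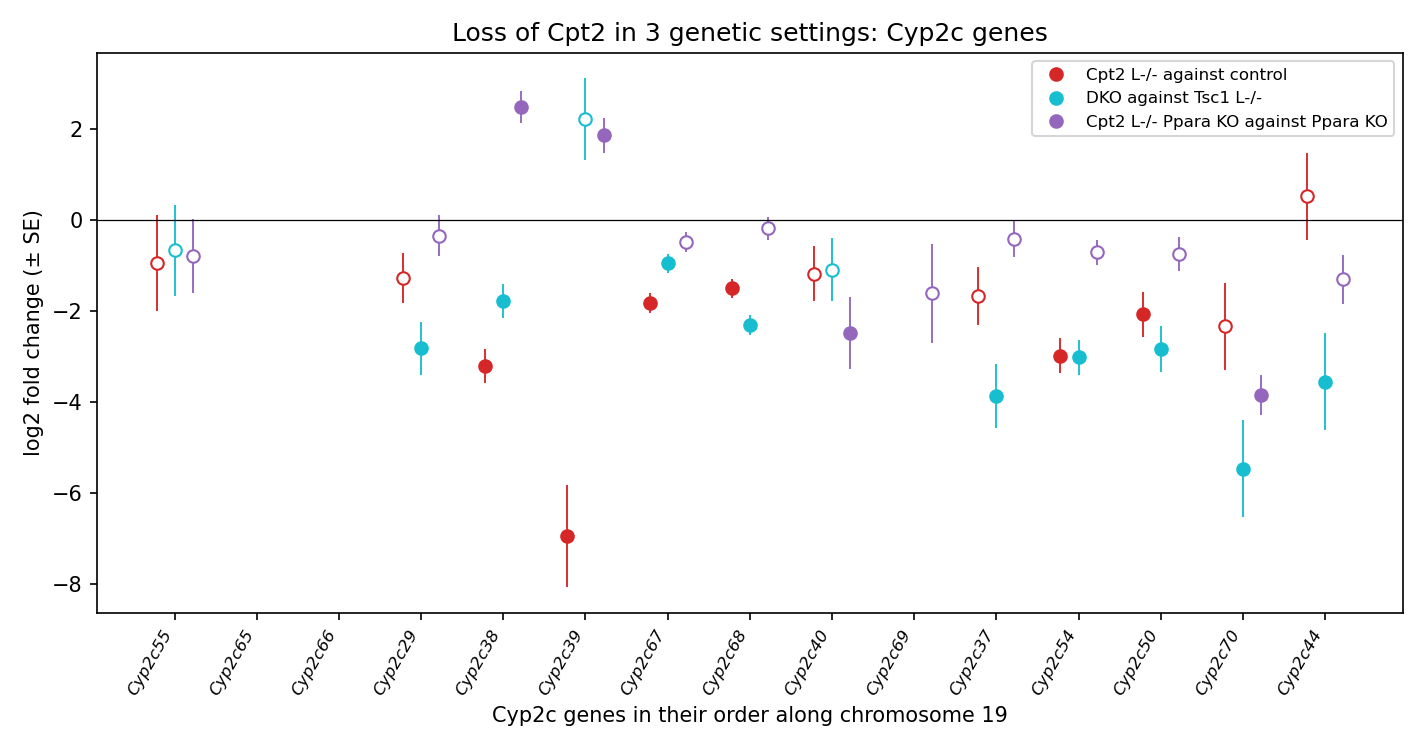
Log2 difference (with standard error) between livers without and with Cpt2 for the tested Cyp2c genes in their order on chromosome 19, in 3 settings: against control (which crosses the library sets), on top of Tsc1 loss and on top of Ppara loss (filled points passed the edgeR test). Cyp2c50, Cyp2c54, Cyp2c67 and Cyp2c68 are lower in the first 2 settings, and Cyp2c38 and Cyp2c39 are lower against control but higher on top of Ppara loss.

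Cpt2 loss can be compared in 3 settings that share no library, of which Cpt2 L-/- against control crosses the library sets. Of 33 Cyp2 genes tested both for Cpt2 L-/- against control and for DKO against Tsc1 L-/-, 13 were lower in both, which is 13 of the 16 and 13 of the 19 called, beside 7.96% of all genes lower in both (Cyp2a5, Cyp2c38, Cyp2c50, Cyp2c54, Cyp2c67, Cyp2c68, Cyp2d10, Cyp2d22, Cyp2d40, Cyp2f2, Cyp2g1, Cyp2j5 and Cyp2j6). None was called in opposite directions, and few of all genes were (0.176% higher in the first and lower in the second, 0.183% the reverse). Of 30 genes tested both for Cpt2 L-/- against control and on top of Ppara loss, Cyp2d10, Cyp2f2 and Cyp2j6 were lower in both (1.7% of all genes), while Cyp2c38, Cyp2c39 and Cyp2r1 were lower against control and higher against Ppara KO (2.45% of all genes).

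**Figure D4:**
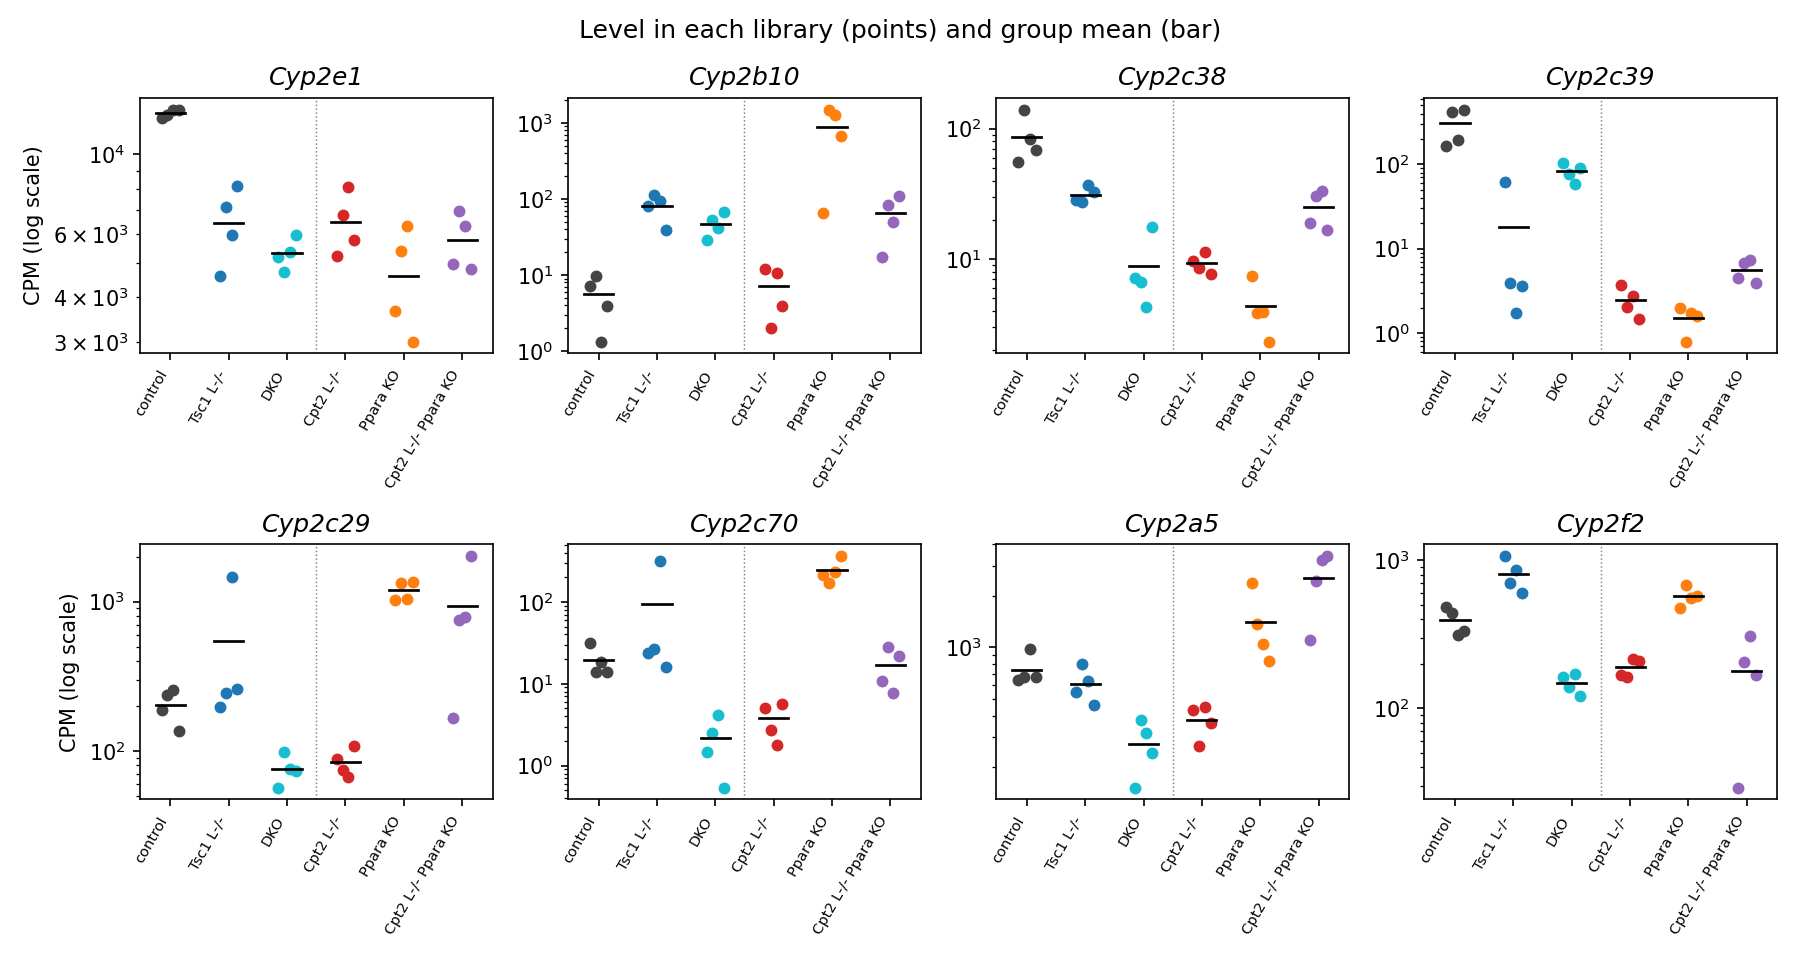
CPM on a log axis in each of the 24 libraries for 8 Cyp2 genes, with points for libraries, a bar for the group mean and a dotted line between the library sets. Cyp2b10 reaches its highest values in Ppara KO, Cyp2c39 is at a few CPM in Cpt2 L-/- and Ppara KO and at 59 to 104 CPM in DKO, and Cyp2c70 has 1 Tsc1 L-/- library (312 CPM) far above the other 3.

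The Cyp2d genes, relatives of the human drug-metabolising CYP2D enzyme, were mostly lower in DKO. Of 6 tested in the first fit, 5 were lower in DKO than in control, 4 lower than in Tsc1 L-/- and 3 lower in Cpt2 L-/- than in control, beside 17.1%, 15.2% and 14.9% of all genes. Cyp2d9, a male-specific testosterone hydroxylase and the most abundant of them, held 1755, 2172, 1861 and 1728 CPM in control and 928, 1066, 1126 and 1051 CPM in DKO, 1.78-fold lower (log2 -0.83 ± 0.26 SE, edgeR adjusted p = 0.0176). That call was lost in the 3 limma fits and in 1 fit of all 24 libraries (adjusted p up to 0.113). Ppara KO libraries ranged from 1059 to 3423 CPM and Cpt2 L-/- Ppara KO libraries from 635 to 1132 CPM. The latter were lower by the test (log2 -1.21 ± 0.29 SE, edgeR adjusted p = 0.01), although the groups overlap. Cyp2d26 held 478, 428, 345 and 401 CPM in DKO, below all libraries of control (847, 784, 1028 and 853 CPM; log2 -1.07 ± 0.17 SE, edgeR adjusted p = 9.05e-05) and of Cpt2 L-/- (504, 669, 902 and 609.5 CPM; log2 -0.68 ± 0.17 SE, edgeR adjusted p = 0.00952).

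Cyp2d10 averaged 929 ± 105 CPM in control (SD, n = 4), 594 ± 43 CPM in Cpt2 L-/-, 469.9 ± 54.5 CPM in DKO, 1026 ± 265 CPM in Ppara KO and 609 ± 85.9 CPM in Cpt2 L-/- Ppara KO. It was lower with Cpt2 loss in each of the 3 settings, by log2 -0.65 against control, -0.57 against Tsc1 L-/- and -0.75 against Ppara KO. Cyp2d22 and Cyp2d40 averaged 234 and 47.1 CPM in control and were called lower in Cpt2 L-/- (log2 -0.58 and -0.95) and in DKO (log2 -0.86 and -1.04). Cyp2d12 was scarce but rose in Ppara KO, with 2.03, 1.26, 2.5 and 2.06 CPM against 0, 0, 0.257 and 0.0581 CPM in control (log2 4.39 ± 0.81 SE, edgeR adjusted p = 0.00075) and 0.0709, 0.139, 0.414 and 0.279 CPM in Cpt2 L-/- Ppara KO (log2 -3.03 ± 0.71 SE, edgeR adjusted p = 0.00885). Its log2 difference from control was 6.13 without control replicate 3 and 1.03 by limma on log2(FPKM + 1), called in both. Ppara KO libraries held 16 to 45 reads of Cyp2d12, and the other groups of that fit at most 7. The gene passed the filter on low counts only through Ppara KO, where it was high, so these calls were likely beforehand. Cyp2d11 and Cyp2d34 averaged at most 0.676 and 0.11 CPM in any group.

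Cyp2f2, a periportal enzyme that activates naphthalene, was higher than control in Tsc1 L-/- and lower in Cpt2 L-/- and DKO. Control libraries held 487, 441, 313 and 336 CPM, Tsc1 L-/- libraries 1075, 704, 869 and 605 CPM and DKO libraries 164, 139.8, 170.3 and 121 CPM. The 3 groups do not overlap. Tsc1 L-/- was 2.07-fold higher than control (log2 1.05 ± 0.19 SE, edgeR adjusted p = 0.0021), and DKO was 2.62-fold lower than control (log2 -1.39 ± 0.19 SE, edgeR adjusted p = 2.12e-05) and 5.41-fold lower than Tsc1 L-/- (log2 -2.44 ± 0.19 SE, edgeR adjusted p = 1.89e-07). The interaction was -1.38 ± 0.26 SE, edgeR adjusted p = 0.0105, and in 1 fit of all 24 libraries neither it nor the rise in Tsc1 L-/- was called (adjusted p = 0.32 and 0.168). Livers of Cpt2 L-/- mice held 168, 164, 216 and 209 CPM (log2 -1.06 ± 0.19 SE, edgeR adjusted p = 0.000331 against control). The combined loss left 29.1, 206, 310.2 and 169 CPM, below all Ppara KO libraries at 475, 686, 554 and 578 CPM (log2 -1.68 ± 0.42 SE, edgeR adjusted p = 0.0115).

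Cyp2u1, a fatty acid hydroxylase, also rose in Tsc1 L-/-, with 16.1, 8.06, 14.1 and 8.69 CPM against 4.59, 3.24, 5.19 and 7.61 CPM in control (log2 1.18 ± 0.28 SE, edgeR adjusted p = 0.0165). The call was lost without control replicate 2 or Tsc1 L-/- replicate 1 (adjusted p up to 0.0542). DKO libraries held 5.48, 3.66, 4.1 and 4.06 CPM, lower than Tsc1 L-/- (log2 -1.43 ± 0.29 SE, edgeR adjusted p = 0.000938). In Cpt2 L-/- Ppara KO (2.77, 4.8, 4.26 and 5.36 CPM) it was lower than in Ppara KO (6.04, 7.5, 6.8 and 15.1 CPM; log2 -1.03 ± 0.34 SE, edgeR adjusted p = 0.0328), and that call was lost without Cpt2 L-/- Ppara KO replicate 1, 2 or 3 or Ppara KO replicate 4 (adjusted p up to 0.133).

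Among the Cyp2j genes, which epoxidise arachidonic acid, only 3 were tested in both fits. Cyp2j5, the main hepatic member, held 431, 476, 439 and 464 CPM in control livers, 203, 242, 364 and 323 CPM in Cpt2 L-/- and 261, 227, 198 and 192 CPM in Ppara KO. Both knockouts were below all control libraries (log2 -0.68 ± 0.20 SE, edgeR adjusted p = 0.0168 and -1.05 ± 0.20 SE, edgeR adjusted p = 0.000951), the first call being lost without Cpt2 L-/- replicate 1 or 2 (adjusted p up to 0.0607). Cyp2j5 was the 1 of 34 Cyp2 genes lower with Ppara loss in both settings, beside 2.26% of all genes, at 161, 179.8, 125 and 191 CPM in Cpt2 L-/- Ppara KO (log2 -0.78 ± 0.20 SE, edgeR adjusted p = 0.0135 against Cpt2 L-/-, adjusted p = 0.0624 without Cpt2 L-/- replicate 3). DKO libraries held 174, 169.6, 208 and 176 CPM, 2.46-fold lower than control (log2 -1.3 ± 0.21 SE, edgeR adjusted p = 0.000107).

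Cyp2j6 averaged 36.7 CPM in Cpt2 L-/- to 64.2 CPM in Ppara KO and was lower with Cpt2 loss in all 3 settings by log2 -0.43, -0.49 and -0.54. These calls were fragile, since leaving out single libraries raised their adjusted p to as much as 0.132, 0.0717 and 0.056. The first was lost without any one of control replicates 1, 2 and 4 and the Cpt2 L-/- replicates, the second without DKO replicate 4 or Tsc1 L-/- replicate 1 or 3, and the last without Ppara KO replicate 3. Cyp2j9 was lower in Ppara KO (6.57 against 15.3 CPM; log2 -1.23 ± 0.40 SE, edgeR adjusted p = 0.0279) with overlap, and not without control replicate 1 or 3 or Ppara KO replicate 2 or 4 (adjusted p up to 0.105). Cyp2j8 averaged at most 0.533 CPM, Cyp2j11 was read only in Tsc1 L-/- at 0.0637 CPM or less, and Cyp2j7, Cyp2j12 and Cyp2j13 had no read.

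Cyp2r1, which hydroxylates vitamin D to calcidiol, held 11.2, 12.3, 11.6 and 10.4 CPM in the control livers. The Cpt2 L-/- livers had 6.5, 4.95, 4.59 and 7.35 CPM, lower with no overlap (log2 -0.96 ± 0.18 SE, edgeR adjusted p = 0.000512). It was at the control level in DKO, with 12.8, 13.2, 13.3 and 9.19 CPM, and all of these were above Cpt2 L-/- (log2 1.07 ± 0.18 SE, edgeR adjusted p = 0.000704). Cpt2 L-/- Ppara KO libraries held 18.7, 23.2, 10.4 and 12.1 CPM, also above Cpt2 L-/- (log2 1.46 ± 0.25 SE, edgeR adjusted p = 0.00128) and above Ppara KO at 10.2, 5.92, 7.77 and 9.47 CPM (log2 0.94 ± 0.25 SE, edgeR adjusted p = 0.0145, adjusted p = 0.0525 without Cpt2 L-/- Ppara KO replicate 2). The interaction of Cpt2 with Ppara loss was 1.9 ± 0.36 SE, edgeR adjusted p = 0.00182. That of Cpt2 with Tsc1 loss, 1.05, was lost without any one of the control libraries, DKO or Tsc1 L-/- replicates 1 and 2, DKO replicate 3 or Cpt2 L-/- replicate 3 (adjusted p up to 0.0775), under a replicate block (adjusted p = 0.0612), in the 3 limma fits and in 1 fit of all 24 libraries (adjusted p up to 0.187).

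Genes made mainly outside the liver were near the limit of detection. Olfactory Cyp2g1 had 56 reads over the 4 control libraries, 7 over the Cpt2 L-/- libraries and 1 over the DKO libraries, and both groups were called lower than control. Its rise in Cpt2 L-/- Ppara KO against Cpt2 L-/- (log2 2.43) was lost without any library but Cpt2 L-/- Ppara KO replicate 2 (adjusted p up to 0.1). Cyp2s1 held 1.13, 0.0789, 1.6 and 13.7 CPM in Ppara KO, so that its difference from control (log2 3.3) rests on replicate 4 and was 1.2 without it (adjusted p = 0.32). Cyp2t4 averaged at most 0.701 CPM with no call, and Cyp2w1 had no read in any of the 24 libraries. In all, 6 of the 48 genes had no read, which allows up to 3 reads in a library of this depth, and 8 had at most 3 reads in every library.

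Several calls above also depended on which libraries were fitted together. A fit of Cpt2 L-/- Ppara KO and Ppara KO alone lost 9 calls between them (Cyp2a12, Cyp2b10, Cyp2c40, Cyp2d9, Cyp2d10, Cyp2f2, Cyp2j6, Cyp2r1 and Cyp2u1; adjusted p from 0.0527 to 0.142). A fit of 2 groups also lost Cyp2c67, Cyp2c39 and Cyp2u1 for Tsc1 L-/- against control (adjusted p from 0.0524 to 0.147) and Cyp2c44 for DKO against Tsc1 L-/- (adjusted p = 0.0767). One fit of all 24 libraries lost Cyp2d22 for Cpt2 L-/- against control (adjusted p = 0.141) and for DKO against Tsc1 L-/- (adjusted p = 0.0753), Cyp2c70 for Cpt2 L-/- Ppara KO against Cpt2 L-/- (adjusted p = 0.0584), and Cyp2d26 and Cyp2j5 for DKO against Cpt2 L-/- (adjusted p = 0.0699 and 0.0623). Cyp2c40 in DKO against control was -1.85 on the log2 scale without control replicate 2, and still called, and for Cpt2 L-/- Ppara KO against Ppara KO it was -3.39 without Cpt2 L-/- Ppara KO replicate 2.

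Cyp2 differences between livers without and with Ppara were not the same with and without Cpt2. Ppara KO against control and the interaction cross the library sets, so genotype and library set cannot be told apart in them. Of 34 genes tested in both settings, Cyp2b10, Cyp2c29 and Cyp2c70 were higher in both (1.88% of all genes), and Cyp2j5 was lower in both (2.26% of all genes). Cyp2c38 and Cyp2c39 were lower in Ppara KO against control and higher in Cpt2 L-/- Ppara KO against Cpt2 L-/- (1.11% of all genes). The last call for Cyp2c39 was lost in 12 of 18 alternatives. The interaction was called for 11 of the 34, beside 24% of all genes (12% in either direction), with 9 positive (Cyp2a5, Cyp2c38, Cyp2c39, Cyp2c54, Cyp2c67, Cyp2c68, Cyp2e1, Cyp2g1 and Cyp2r1) and 2 negative (Cyp2b10 and Cyp2s1). The call was lost in 17 of 24 alternatives for Cyp2s1 (adjusted p up to 0.354, log2 -2.24 without Ppara KO replicate 4), in 14 of 24 for Cyp2g1 (adjusted p up to 0.183), in 2 for Cyp2b10 (adjusted p up to 0.0684) and in 1 for Cyp2a5 (adjusted p = 0.0605). The interaction of Tsc1 and Cpt2 loss was called for 3 of 33 (Cyp2c39, Cyp2f2 and Cyp2r1), beside 2.38% of all genes, 1.09% positive and 1.28% negative.

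**Figure D5:**
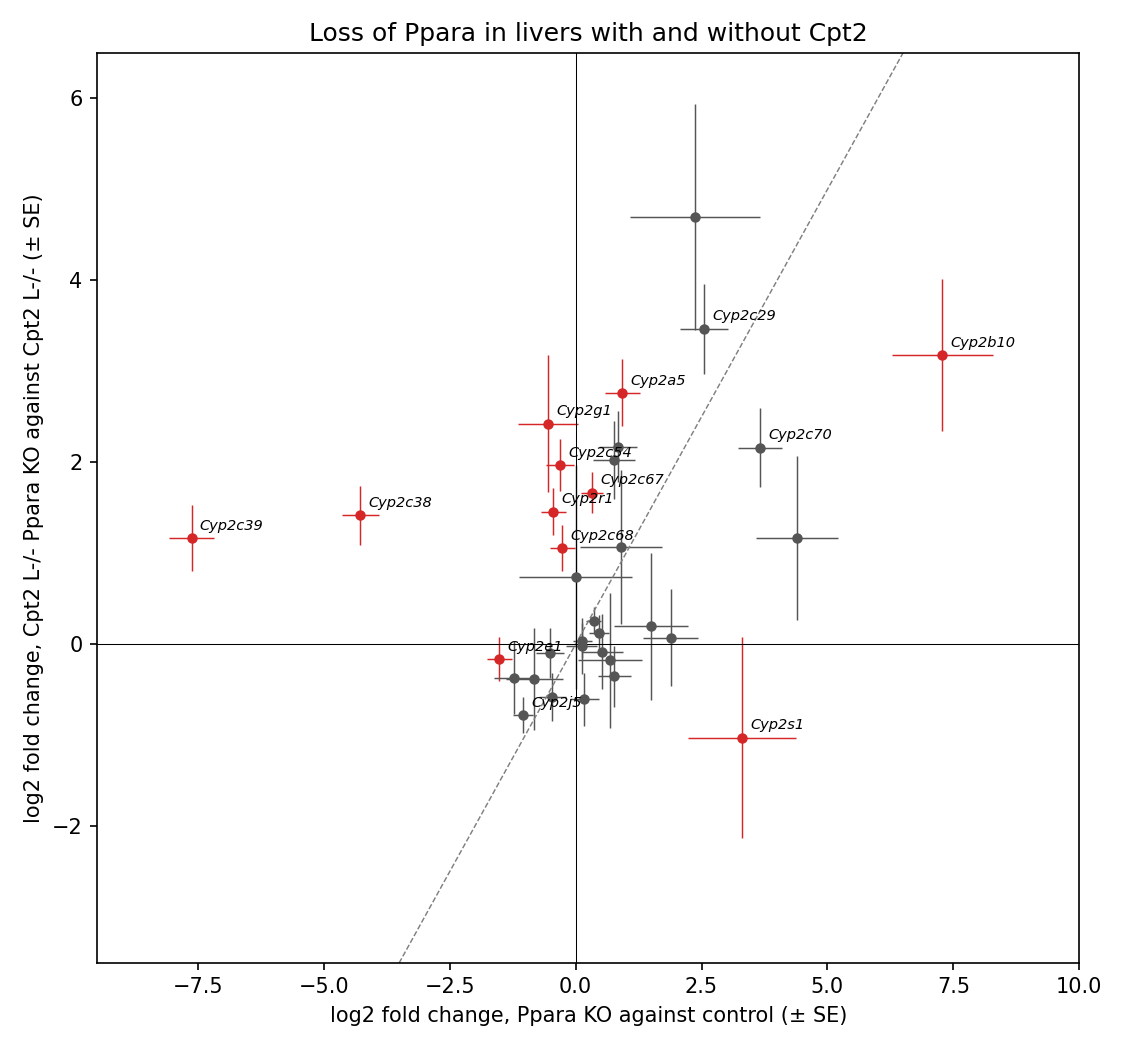
Log2 difference with Ppara loss against control (horizontal axis) and on top of Cpt2 loss (vertical axis) for the 34 tested Cyp2 genes, with standard errors and genes whose interaction was called in red. Cyp2b10, Cyp2c29 and Cyp2c70 are to the upper right, while Cyp2c38 and Cyp2c39 are far to the left and above 0.

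Partners and regulators of the P450 enzymes were read from a list of 41 genes. In Tsc1 L-/- the PXR gene Nr1i2 was lower than control (log2 -0.83 ± 0.14 SE, edgeR adjusted p = 0.00172), the 1 of 6 xenobiotic sensors called. Foxa3, a hepatic transcription factor, was also lower (log2 -0.93 ± 0.18 SE, edgeR adjusted p = 0.00375), the 1 of 20 such factors called. Of all genes 6.64% were called and 2.48% were lower, so 1 of 20 is near that share. In DKO against control 9 of the 20 were lower and none higher (of all genes 17.1% were lower and 19.3% higher), among them Nr0b2, a repressor induced by bile acids (log2 -5.1 ± 1.07 SE, edgeR adjusted p = 0.00269), and Hnf4a, a master factor of hepatocytes (log2 -0.54 ± 0.16 SE, edgeR adjusted p = 0.0124). The Hnf4a call was lost without control replicate 1 and by limma with a pseudocount of 1 (adjusted p up to 0.0684), and that of Foxa3 in 1 fit of all 24 libraries (adjusted p = 0.099). In DKO against Tsc1 L-/- 8 of 20 were lower, where 15.2% of all genes were lower. In Ppara KO against control 9 of 20 were lower and 1 higher (13.2% and 15.9% of all genes). Loss of Cpt2 alone had 5 lower and 1 higher against control (14.9% and 16.2%). The CAR gene Nr1i3 was lower in Ppara KO (log2 -1.28 ± 0.31 SE, edgeR adjusted p = 0.00548), where Cyp2b10 and Cyp2c29 were higher. Por, the electron donor, was called in 1 comparison, lower in DKO than in Cpt2 L-/- (log2 -0.71 ± 0.18 SE, edgeR adjusted p = 0.0105), and not in 1 fit of all 24 libraries (adjusted p = 0.119). The 7 genes of growth hormone signalling were called in both directions. Against control 1 was higher in Tsc1 L-/- (Stat5b), 2 were higher and 2 lower in Cpt2 L-/- (Stat5a and Stat5b higher, Cux2 and Ghr lower), 1 was higher and 2 lower in DKO (Stat5a higher, Cux2 and Ghr lower) and 2 were lower in Ppara KO (Ghr and Jak2). These counts of 7 stand beside 4.16% of all genes higher and 2.48% lower in Tsc1 L-/-, 16.2% and 14.9% in Cpt2 L-/-, 19.3% and 17.1% in DKO, and 15.9% and 13.2% in Ppara KO. In DKO against Tsc1 L-/- 4 of 7 were lower and none higher (15.2% and 16.9% of all genes). Cpt2 L-/- Ppara KO against Cpt2 L-/- had 2 lower and 1 higher (8.01% and 10.3%). The call of Stat5b was lost in 14 of 18 alternatives in Tsc1 L-/- (adjusted p up to 0.194) and in 3 of 17 in Cpt2 L-/- (up to 0.102), and that of Jak2 in 13 of 17 (up to 0.199), the replicate block included for Stat5b in Tsc1 L-/- and for Jak2. The receptor gene Ghr was lower in Cpt2 L-/- (log2 -1.0), DKO (log2 -0.99) and Ppara KO (log2 -0.97) than in control.

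Calls of CAR and PXR targets outside the Cyp2 family were mostly in the direction of Cyp2b10 in some comparisons and not in others. In Tsc1 L-/-, where Cyp2b10 was higher, none of 14 tested targets was higher and 1 was lower (Aldh1a1, log2 -1.14), where 4.16% of all genes were higher and 2.48% lower. In DKO against control 3 were higher and 7 lower, beside 19.3% and 17.1% of all genes, from Gsta1 (log2 6.08) to the bile acid and drug carrier Slco1a4 (log2 -2.73), and the drug-metabolising P450 Cyp3a11 was lower (log2 -1.43). In Ppara KO 6 of 15 were higher, 2 lower and 7 not called, beside 15.9% of all genes higher and 13.2% lower, led by the oestrogen sulphotransferase Sult1e1 (log2 5.93) and the glutathione transferase Gstm3 (log2 4.96). In Cpt2 L-/- Ppara KO against Cpt2 L-/- 5 of 15 were higher and none lower, beside 10.3% and 8.01% of all genes, including Gstm3 (log2 5.78), Slco1a4 (log2 3.75) and Cyp3a11 (log2 1.35, adjusted p = 0.0512 without Cpt2 L-/- Ppara KO replicate 2). Against Ppara KO, where Cyp2b10 was lower, 2 of 15 were higher and 2 lower (12.9% and 12.6% of all genes). In DKO against Cpt2 L-/-, where Cyp2b10 was higher, 2 of 14 were higher and 3 lower (10.9% and 7.4%). The interaction of Cpt2 and Ppara loss, negative for Cyp2b10, was positive for 4 of 15 and negative for none (12% either way). Of the other male-biased genes of liver, 3 of 8 fell in Tsc1 L-/- against control (2.48% of all genes), led by Hsd3b5 (log2 -3.19, lost in 9 of 18 alternatives with adjusted p up to 0.158), and 4 of 8 were lower and 1 higher in DKO (17.1% and 19.3% of all genes). Against control, 4 were lower and 1 higher in Cpt2 L-/- (14.9% and 16.2%), and 1 lower and 2 higher in Ppara KO (13.2% and 15.9%). Of 3 other female-biased genes tested, 3 were lower in DKO than in Tsc1 L-/- (15.2%) and 2 lower than in control (17.1%). In Cpt2 L-/- Ppara KO 2 of 3 were higher than in Cpt2 L-/- (10.3%). Without single libraries some of these log2 differences moved and stayed called, with Gsta1 at 7.01 (control replicate 4) or 5.38 (DKO replicate 2), Nr0b2 at -6.53 (DKO replicate 1), Gstm3 at 4.12 (Ppara KO replicate 1) and 4.84 (Cpt2 L-/- Ppara KO replicate 4) and Hsd3b5 at -5.32 (Tsc1 L-/- replicate 3).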

How the data were processed

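Poly(A) RNA of mouse liver was sequenced from 24 stranded libraries as single 75-base reads. The authors deposited read counts per gene and FPKM values per gene, the latter scaled to gene length and to the total of counted reads. The submitters' processing notes name Bowtie 0.12.2, TopHat, STAR 2.5 and HTSeq 0.6.1 with no order, and mouse builds mm8 and mm9. Coordinates in the deposited table fit GRCm38 instead, where 34434 of 34490 matched genes overlap GENCODE M21 and 24919 are identical. The strand setting of counting is not given in the sources used here, so overlapping and antisense genes cannot be separated.

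Counts were tested with edgeR 4.0.16 in R 4.3.3 (filterByExpr with a minimum count of 10 and total of 15, TMM factors, robust quasi-likelihood fit, Benjamini-Hochberg over 13641 or 13615 genes, threshold 0.05). One fit held control, Tsc1 L-/-, Cpt2 L-/- and DKO, the other control, Cpt2 L-/-, Ppara KO and Cpt2 L-/- Ppara KO, each with no covariate. CPM values use TMM factors over all 24 libraries, and fold changes are edgeR estimates. FPKM was used for sums over genes and for levels of different genes. The members and gene lists were chosen with earlier results of these data known. Statistics are given first for the 5 largest rises and falls per comparison among called genes with a mean of at least 1 CPM in the higher group and no overlap between groups, and for other members after their values were seen. Every value column was matched to a sample by its name. In data simulated from these counts for Tsc1 L-/- against control, 63 of 91 genes changed by a log2 of 1 and 92 of 109 changed by a log2 of 2 were recovered, with 7 false calls among 13448 genes tested. Replicates of a group were compared as possible duplicates by a chi-square statistic per degree of freedom over 36 pairs, which ranged from 29.1 to 325, so no library was counted as a copy. Alternatives were DESeq2 1.42.0, limma 3.58.1 on log2(FPKM + 1) or log2(FPKM + 0.1), other size factors, no filter on low counts, other sets of libraries, each library left out in turn and a replicate block. Promoters were read from RefSeq (GRCm38.p6), where 40 of the 48 genes matched by symbol, and the share of 75-base windows found in other transcripts was taken from the annotation's transcripts. Intervals for a count of 0 cover counting error only.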

Additional observations from a re-analysis of the deposited data

Results flagged for a closer look

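Within groups, 31 Cyp2 genes with a mean of at least 1 CPM over the 24 libraries gave 186 groups of 4 libraries, and in 20 of them the highest or lowest library stood apart by Dixon's criterion (gap over range above 0.829). The criterion gives about 1 in 20 for independent normal values. CPM values are skewed, some groups were near the limit of detection and genes of a library are not independent, so no excess can be read from this count. Of the 20, 5 were in Tsc1 L-/- replicate 3 and 3 in DKO replicate 4. Tsc1 L-/- replicate 3 was highest for Cyp2b9 (31.4 CPM, others 0.182 to 0.938), Cyp2c29 (1465 CPM, others 197 to 258), Cyp2c44 (251 CPM), Cyp2c70 (312 CPM, others 15.9 to 26.3) and Cyp2s1 (1.02 CPM). DKO replicate 4 was highest for Cyp2c37 (120 CPM, others 22.1 to 24.2) and Cyp2c44 (44.6 CPM, others 1.17 to 2.77) and lowest for Cyp2r1 (9.19 CPM). Tsc1 L-/- replicate 1 was highest for Cyp2a4 (3.94 CPM) and Cyp2c39 (62.5 CPM, others 1.72 to 3.89). Control replicate 3 was highest for Cyp2a4 (0.72 CPM) and Cyp2a5 (976 CPM), and control replicate 2 for Cyp2c54 (264.3 CPM) and Cyp2s1 (1.03 CPM). Ppara KO replicate 4 was highest for Cyp2s1 (13.7 CPM) and Cyp2u1 (15.1 CPM), and Ppara KO replicate 1 for Cyp2b9 (0.0901 CPM). The remaining cases were Cyp2a4 in Cpt2 L-/- Ppara KO replicate 4 (27.5 CPM, others 0.709 to 2.09), Cyp2j5 in DKO replicate 3 (208 CPM) and Cyp2s1 in Cpt2 L-/- replicate 2 (2.35 CPM).

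Effects of 1 deletion differed with the presence of the other for 14 interactions in edgeR, all of which cross the library sets. With Tsc1 and Cpt2 these were Cyp2c39 (log2 9.15, and 11.7 without Tsc1 L-/- replicate 1), Cyp2f2 (-1.38) and Cyp2r1 (1.05). With Cpt2 and Ppara these were Cyp2c39 (8.8), Cyp2c38 (5.7), Cyp2g1 (2.97), Cyp2c54 (2.27), Cyp2r1 (1.9), Cyp2a5 (1.84), Cyp2e1 (1.35), Cyp2c67 (1.34), Cyp2c68 (1.32), Cyp2b10 (-4.1) and Cyp2s1 (-4.33). Those of Cyp2s1 and Cyp2g1 were lost in 17 and 14 of 24 alternatives, and that of Cyp2r1 with Tsc1 in 15 of 24.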

How the results depend on the processing

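Of 121 calls of Cyp2 genes, 78 were kept under every alternative run, and over 2220 alternative values 221 lost the call and none changed direction. With each library left out in turn, the number of Cyp2 genes called ranged from 5 to 7 for Tsc1 L-/- against control, 14 to 16 for Cpt2 L-/- against control, 19 to 21 for DKO against control, 4 to 6 for DKO against Cpt2 L-/-, 18 to 20 for DKO against Tsc1 L-/-, 2 to 5 for the interaction of Tsc1 and Cpt2 (5 without DKO replicate 4), 9 to 14 for Ppara KO against control, 11 to 14 for Cpt2 L-/- Ppara KO against Cpt2 L-/-, 11 to 17 against Ppara KO and 9 to 12 for the interaction of Cpt2 and Ppara. DESeq2 called 11 for Tsc1 L-/- against control and 6 for the interaction of Tsc1 and Cpt2. A fit of the 2 groups alone called 4 for Tsc1 L-/- against control, 8 for DKO against Cpt2 L-/- and 4 for Cpt2 L-/- Ppara KO against Ppara KO. One fit of all 24 libraries called 3 for DKO against Cpt2 L-/- and 1 for the interaction of Tsc1 and Cpt2. The cause of these shifts was not tested. Fits of 12 libraries of 1 set, added after the data were seen, called 5 (Tsc1 L-/- against control), 18 (DKO against control), 18 (DKO against Tsc1 L-/-), 14 and 14 (Cpt2 L-/- Ppara KO against Cpt2 L-/- and Ppara KO).

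As ratios to control, sums of CPM in place of FPKM gave 0.423 for all Cyp2 genes in DKO, 1.81 for Cyp2c in Ppara KO, 0.715 for Cyp2d in Cpt2 L-/-, and 0.523, 0.407 and 0.442 for Cyp2d, Cyp2e and Cyp2j in DKO, against FPKM ratios of 0.48, 1.65, 0.762, 0.59, 0.458 and 0.484. Replicate numbers are shared between groups, but same-numbered libraries showed no strong common deviation (correlations from -0.287 to 0.221 in the first fit and from -0.128 to 0.298 in the second, above 0.1 in 7 and 11 of 24 pairs, with 7 and 9 libraries closest to their own number). The main fits used no pairing, though this check cannot exclude one. A replicate block called 6, 16, 20, 5, 20, 2, 12, 13, 14 and 10 genes in the order of the comparisons above.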

Other observations

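Sex-biased Cyp2 genes were called in several comparisons. Both male-biased Cyp2 genes, Cyp2d9 and Cyp2u1, and 1 of 3 female-biased ones tested, Cyp2c40, were lower in Cpt2 L-/- Ppara KO than in Ppara KO (log2 -1.21, -1.03 and -2.48). A fit of these 2 groups alone lost these calls. In the same comparison 5 of 8 other male-biased genes were lower and none higher, and none of 3 other female-biased genes was called. Of all genes 12.6% were lower and 12.9% higher. Against control, DKO had lower Cyp2d9 (log2 -0.83 ± 0.26 SE, edgeR adjusted p = 0.0176, lost in 4 of 18 alternatives) and lower female-biased Cyp2c40 (log2 -2.57 ± 0.66 SE, edgeR adjusted p = 0.00595), and Tsc1 L-/- had higher Cyp2u1 (log2 1.18 ± 0.28 SE, edgeR adjusted p = 0.0165) with Cyp2d9 not called (log2 -0.46 ± 0.26 SE, edgeR adjusted p = 0.329). Cux2, a female-biased factor of growth hormone signalling, was lower in Cpt2 L-/- (log2 -4.3 ± 1.06 SE, edgeR adjusted p = 0.00816) and DKO (log2 -3.23 ± 0.97 SE, edgeR adjusted p = 0.0201) than in control and higher in Cpt2 L-/- Ppara KO than in Cpt2 L-/- (log2 2.9 ± 0.83 SE, edgeR adjusted p = 0.0256). Of 8 genes of electron and haem supply, 1 was higher and 4 lower than control in Cpt2 L-/- (16.2% and 14.9% of all genes), 1 higher and 1 lower in DKO (19.3% and 17.1%) and 1 higher and 2 lower in Ppara KO (15.9% and 13.2%). The gene higher in each was Hmox1, which breaks down haem, in Cpt2 L-/- (log2 2.32 ± 0.26 SE, edgeR adjusted p = 1.04e-05), DKO (log2 1.5 ± 0.26 SE, edgeR adjusted p = 0.000313) and Ppara KO (log2 1.89 ± 0.33 SE, edgeR adjusted p = 0.000537), and Fech, the last enzyme of haem synthesis, was lower in all 3 (log2 -0.81, -0.42 and -0.43). Calls were lost in 2 of 17, 7 of 18 and 10 of 18 alternatives for Cux2 in its 3 comparisons (adjusted p up to 0.309), and in 3 of 18 and 10 of 17 for Fech in DKO and Ppara KO (adjusted p up to 0.134). Whether these genes have a part in the Cyp2 levels was not tested.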
